A study of Mus musculus with 2 samples.

Results

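The transcripts of the mouse mitochondrial genome were followed in long-read RNA sequencing of heart tissue. They were taken as every gene whose symbol in the deposited tables and annotation starts with mt-, in all transcript classes, which gave 37 genes of the mitochondrial chromosome (13 mRNA genes, 2 rRNA genes and 22 tRNA genes). Of these, 18 had a read in either library and 15 had a read in both, set against 15031 annotated mouse genes with a read in either library. Unannotated models on the same chromosome, 15 in replicate 1 and 16 in replicate 2, were listed beside them.

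The tissue was heart of female B6CASTF1/J hybrid mice at 18 to 20 months of age, with no treatment named in the labels. The series held 1 group of 2 libraries, called replicate 1 and replicate 2, each made from 2 µg of RNA. The labels give each library a separate biological sample and both the same donor entry, so the spread between them may be technical in part. The sources used here do not say how the RNA was selected before sequencing or whether the libraries kept strand. No conditions could be contrasted within this single group, and every test below sets replicate 1 against replicate 2. The tests use counting error only, apart from edgeR's exact test, which adds spread between libraries.

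The mitochondrial genome is a small circular DNA molecule present in many copies per cell, and heart muscle is dense in mitochondria. Both of its strands are transcribed into long precursors. In the usual account tRNAs sit between most of the other genes and are cut out, which frees the mRNAs and rRNAs. In that account most of the mRNAs are then polyadenylated. All of its proteins are membrane subunits of respiratory complexes I, III and IV or of ATP synthase (complex V), which they form together with subunits encoded in the nucleus. Stretches of mitochondrial DNA have also been copied into the nuclear chromosomes, where they are annotated as pseudogenes.

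A pair of sequence features bear on how these transcripts were counted, and both are shown from the GENCODE M21 transcript sequences (GRCm38, the assembly also called mm10). The first is the identity between mitochondrial genes and nuclear copies. The first 60 bases of mt-Atp6 (ATP synthase subunit a, chrM:7927-8607, + strand) and of the pseudogene Gm10925 (chr1:24613974-24614651, − strand) have no differing base. Bases 1 to 33 of mt-Nd3 (a complex I subunit, chrM:9459-9806, + strand) and of Gm28438 (chr1:24612775-24613119, − strand) differ by T3C. Bases 1063 to 1122 of mt-Co1 (cytochrome c oxidase subunit 1, chrM:5328-6872, + strand) and the matching bases of Gm29216 (chr1:24615706-24616197, − strand) differ by A1066T. Bases 1 to 120 of mt-Co1 and of Gm13340 (chr2:22588103-22589647, − strand) differ by C54A, A60G and G87A. Each substitution gives the mitochondrial base, its position counted from 1 at the 5′ end of the mitochondrial gene, and the base of the copy. Capitals mark differing bases.
mt-Atp6: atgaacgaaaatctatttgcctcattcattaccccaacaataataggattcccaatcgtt
Gm10925: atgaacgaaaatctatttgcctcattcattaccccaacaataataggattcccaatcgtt
mt-Nd3: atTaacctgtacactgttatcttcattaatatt
Gm28438: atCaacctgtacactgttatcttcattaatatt
mt-Co1 from base 1063: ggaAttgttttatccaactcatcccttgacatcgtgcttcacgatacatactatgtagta
Gm29216: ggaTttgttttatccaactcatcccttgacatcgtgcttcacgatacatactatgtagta
mt-Co1 from base 1: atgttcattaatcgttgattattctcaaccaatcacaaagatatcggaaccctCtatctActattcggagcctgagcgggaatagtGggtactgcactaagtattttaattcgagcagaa
Gm13340: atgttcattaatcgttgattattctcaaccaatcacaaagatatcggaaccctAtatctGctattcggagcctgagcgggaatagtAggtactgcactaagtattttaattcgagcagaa

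The second feature is the end of the message. Of the 13 mRNA genes, 10 are annotated with a complete last codon and 3 (mt-Cytb, mt-Co3 and mt-Nd4) end on a lone T that becomes a stop codon only once adenines are added to the transcript. The last 30 bases of those 3 and of a pair with a complete stop codon are shown, with the last codon, complete or cut short, in capitals.
mt-Cytb: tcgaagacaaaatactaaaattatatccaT
mt-Co3: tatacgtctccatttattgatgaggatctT
mt-Nd4: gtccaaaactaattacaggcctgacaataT
mt-Co1: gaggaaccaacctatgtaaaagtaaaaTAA
mt-Atp6: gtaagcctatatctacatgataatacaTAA
The coding sequences also differ by strand. In the mRNA genes of the + strand G made up 5.88% to 16.1% of bases and T 27.4% to 32.8%, whereas in mt-Nd6, the mRNA gene on the − strand, G made up 28.1% and T 43.7%.

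The deposited tables list 630211 mouse reads in replicate 1 and 664319 in replicate 2, each row a whole number of long reads on 1 transcript model. Levels are given in CPM, reads per 1000000 mouse reads after scaling by TMM factors (a correction for library composition) of 0.986 in replicate 1 and 1.01 in replicate 2. A single read was worth 1.61 CPM in replicate 1, against 1.48 CPM in replicate 2. The SD of the 2 library values follows each ± sign (n = 2), and bracketed ranges are exact 95% intervals, which cover counting error only because reads without molecular identifiers need not be independent molecules. All 7 cardiomyocyte markers had reads, summing to 26812 CPM in replicate 1 and 24165 CPM in replicate 2. The libraries differed in markers of other cells. The 4 atrial muscle markers summed to 1806 CPM in replicate 1 and 4318 CPM in replicate 2, the 5 erythroid markers to 30391 and 11784 CPM, the 4 fat cell markers to 41.8 and 551 CPM, and the 3 airway epithelium markers to 1 and 471 reads in the same order. Bpifa1 and Scgb1a1 of the airway markers and Plin1 of the fat cell markers had no listed read in replicate 1, and all other markers had reads in both libraries. In bulk tissue fewer cells of a type and less RNA per cell cannot be told apart, and the part of these markers in the values below was not tested.

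Mitochondrial genes took 7846 reads in replicate 1, or 1.24% of mouse reads [1.22 to 1.27]. They took 8334 reads in replicate 2, or 1.25% [1.23 to 1.28]. The intervals overlapped, and the mean was 1.25% ± 0.00674. Over reads of the known class only the mean share was 1.90%, and the mRNA sum given next was 18243 CPM, since other classes then leave the base. All reads on mitochondrial genes were assigned to annotated models (the known class), 100% in both libraries, and every model on the mitochondrial chromosome had 1 exon. The share of known-class reads could therefore not be tested for mitochondrial genes. By Fisher's exact test with Benjamini-Hochberg adjustment it differed between the libraries in 7 of 4373 genes tested, or 0.16%.

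By class, mRNAs summed to 12122 CPM in replicate 1 and 11918 CPM in replicate 2, rRNAs to 479.5 and 433 CPM, and tRNAs to 24.1 and 19.3 CPM in the same order. Reads were concentrated on a pair of mRNAs, since mt-Cytb and mt-Co1 together held 68.8% of mitochondrial gene reads in replicate 1 and 68.4% in replicate 2.

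**Figure D1:**
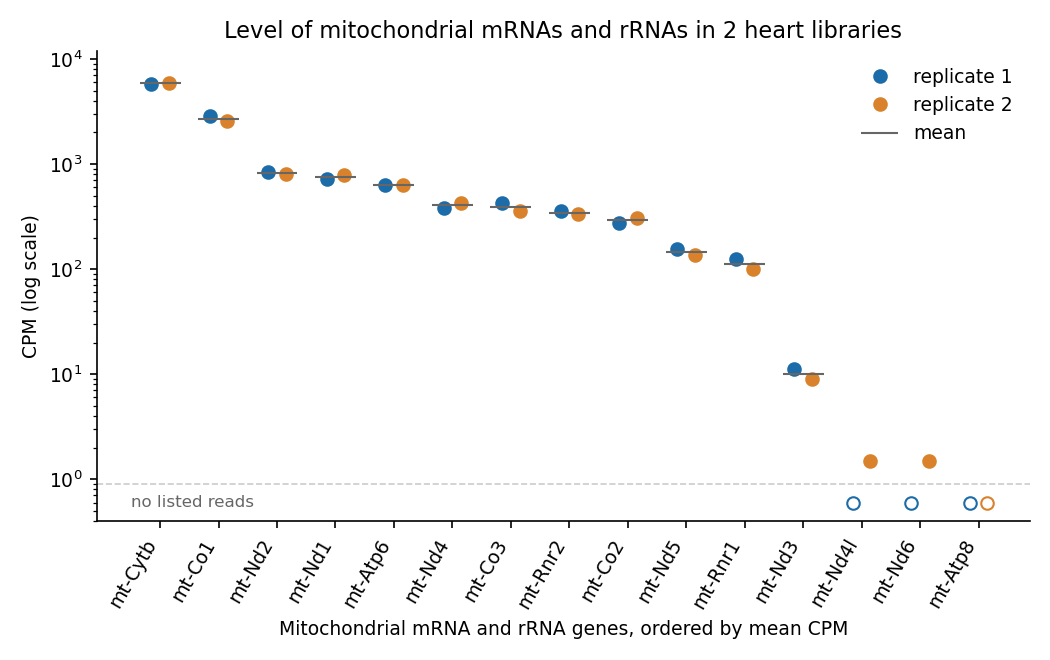
Level of each mitochondrial mRNA and rRNA gene in CPM on a log scale, with a point per library, a bar at the mean where both libraries had reads, and open points below the dashed line for genes with no listed reads. mt-Cytb (5875 ± 47.9 CPM) and mt-Co1 (2699 ± 199.9 CPM) stand above all other genes in both libraries, and mt-Nd4l, mt-Nd6 and mt-Atp8 have at most 1 read in a library.

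mt-Cytb (chrM:14145-15288, + strand), which encodes cytochrome b, the sole mitochondrially encoded subunit of complex III, was the most abundant. It had 3630 reads in replicate 1 and 3981 reads in replicate 2, which were 46.3% and 47.8% of mitochondrial gene reads. Its level was 5875 ± 47.9 CPM, or 5136 ± 41.9 CPM per kilobase of annotated transcript. The ratio of replicate 1 over replicate 2 was 0.989 [0.945 to 1.03].

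Of the complex IV genes, mt-Co1 encodes the catalytic subunit that holds the oxygen-binding centre. It had 1765 reads in replicate 1 and 1723 reads in replicate 2, with a level of 2699 ± 199.9 CPM or 1747 ± 129 CPM per kilobase. mt-Co3 (chrM:8607-9390, + strand) had 264 reads in replicate 1 and 239 reads in replicate 2, at 389.8 ± 49.5 CPM or 497 ± 63.2 CPM per kilobase. mt-Co2 (chrM:7013-7696, + strand), whose product takes electrons from cytochrome c, had 172 reads in replicate 1 and 208 reads in replicate 2, at 293 ± 22.6 CPM or 428 ± 33.0 CPM per kilobase. mt-Co1 and mt-Co3 were the higher in replicate 1 on the CPM scale and mt-Co2 in replicate 2. The 3 genes summed to 3542 CPM in replicate 1, against 3221 CPM in replicate 2, with a ratio of 1.10 [1.04 to 1.17]. All 3 have near-identical nuclear copies that also held reads, so their own levels are uncertain.

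Of the complex V genes, mt-Atp6 had 393 reads in replicate 1 and 423 reads in replicate 2, at 630.1 ± 3.21 CPM or 925 ± 4.71 CPM per kilobase. mt-Atp8 (chrM:7766-7969, + strand), which encodes a small membrane subunit of ATP synthase, had no listed read in either library. A count of 0 allowed up to 3 reads, or 4.83 CPM in replicate 1 and 4.45 CPM in replicate 2. The 2 genes overlap by 43 bases and are known to be carried on 1 bicistronic message. Which stretch of the message each read covered is not given in the tables, and the levels of this pair cannot be told apart.

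The 7 complex I genes summed to 2106 CPM in replicate 1, against 2160 CPM in replicate 2, with a ratio of 0.975 [0.904 to 1.05]. mt-Nd2 (chrM:3914-4951, + strand) had 520 reads in replicate 1 and 539 reads in replicate 2, at 788 ± 25.0 CPM per kilobase. mt-Nd1 (chrM:2751-3707, + strand) had 450 reads in replicate 1 and 528 reads in replicate 2, at 788 ± 44.0 CPM per kilobase. Their products are membrane subunits of the part of complex I that moves protons, and the per-kilobase levels of the 2 genes overlapped between the libraries. mt-Nd4 (chrM:10167-11544, + strand) had 236 reads in replicate 1 and 289 reads in replicate 2, at 293 ± 25.2 CPM per kilobase. mt-Nd5 (chrM:11742-13565, + strand), the longest of the mRNA genes at 1824 bases, had 96 reads in replicate 1 and 91 reads in replicate 2, at 79.4 ± 7.52 CPM per kilobase. Both encode antiporter-like subunits, and they differed by more than their spread.

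The remaining complex I genes were near the limit of detection. mt-Nd3 had 7 reads in replicate 1 and 6 reads in replicate 2, at 29.0 ± 4.79 CPM per kilobase. mt-Nd4l (chrM:9877-10173, + strand), which shares 7 bases with mt-Nd4 and is known to share a bicistronic message with it, had no listed read in replicate 1 and 1 read in replicate 2. mt-Nd6 (chrM:13552-14070, − strand), the only mRNA gene on the − strand, likewise had no listed read in replicate 1 and 1 read in replicate 2. These single reads lie within the 3 reads that a count of 0 allows.

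The rRNA genes lie at the head of the + strand transcription unit. mt-Rnr2 (chrM:1094-2675), the large-subunit rRNA of the mitochondrial ribosome, had 221 reads in replicate 1 and 224 reads in replicate 2, at 217 ± 10.3 CPM per kilobase. mt-Rnr1 (chrM:70-1024), the small-subunit rRNA, had 77 reads in replicate 1 and 68 reads in replicate 2, at 118 ± 17.0 CPM per kilobase. On the per-kilobase scale mt-Rnr2 thus lay between mt-Nd4 and mt-Nd5, and mt-Rnr1 between mt-Rnr2 and mt-Nd5. Since RNA selection is not stated, levels of rRNAs and tRNAs beside those of mRNAs cannot be read as amounts in the tissue. Of the 22 tRNA genes 18 had no listed read, among them all 8 on the − strand. The 4 with reads were mt-Ti, the isoleucine tRNA (4 reads in replicate 1 and 7 reads in replicate 2), mt-Tm, the methionine tRNA (5 and 3 reads), mt-Tt, the threonine tRNA (5 and 3 reads), and mt-Th, the histidine tRNA (1 read in replicate 1 and no listed read in replicate 2).

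The order of the mRNAs changed with division by length and with the reads of their nuclear copies. By reads the order was mt-Cytb, mt-Co1, mt-Nd2, mt-Nd1 and mt-Atp6, followed by mt-Nd4, mt-Co3 and mt-Co2. Per kilobase mt-Atp6 moved above mt-Nd2 and mt-Nd1, with 929 CPM per kilobase in replicate 1 and 922 CPM per kilobase in replicate 2. There mt-Nd2 had 806 and 771 and mt-Nd1 had 757 and 819. This division used the 681 bases annotated for mt-Atp6 alone. Over the longer message shared with mt-Atp8 its level per kilobase would be lower, so its place above mt-Nd2 and mt-Nd1 depends on that length. mt-Nd4 moved below mt-Co3 and mt-Co2. By reads, the counting intervals of neighbours were apart in both libraries between mt-Cytb and mt-Co1, mt-Co1 and mt-Nd2, mt-Atp6 and mt-Nd4, mt-Co2 and mt-Nd5, and mt-Rnr1 and mt-Nd3. They overlapped in both libraries between mt-Nd2 and mt-Nd1, among neighbours in the run mt-Nd4, mt-Co3, mt-Rnr2 and mt-Co2, and between mt-Nd5 and mt-Rnr1, while mt-Nd1 and mt-Atp6 overlapped in replicate 1 only. These orders count reads listed under the mitochondrial genes alone. With the reads of near-identical nuclear copies added, a setting chosen after seeing the data, mt-Atp6 had 1372 ± 49.4 CPM and lay above mt-Nd2 (818 ± 26.0 CPM) and mt-Nd1 (754 ± 42.1 CPM) by reads as well. mt-Co3 then had 787 ± 76.6 CPM and mt-Co2 613 ± 63.3 CPM, both above mt-Nd4 at 414 ± 36.4 CPM, while mt-Cytb and mt-Co1 (3087 ± 632 CPM) kept the first places. The order below mt-Co1 thus depends on where reads of identical sequence were placed.

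The libraries were then compared gene by gene with a two-sided exact binomial test that took the scaled mouse read totals as the expected split, in all 7545 annotated genes with at least 10 reads over both libraries, with Benjamini-Hochberg adjustment and a threshold of 0.05. Of the 37 mitochondrial genes 13 could be tested and 24 had too few reads. None of the 13 was called, against 156 of all genes tested, or 2.07% (0.861% higher in replicate 1 and 1.21% higher in replicate 2). At that share a count of 0 among 13 genes is uninformative. By edgeR's exact test with a common dispersion 0 of the 13 were called, against 49 genes or 0.649% (0.186% higher in replicate 1 and 0.464% higher in replicate 2). Its dispersion was estimated from the same 2 libraries, so it could not call small ratios. Unadjusted p-values under 0.05 were found in 2 of the 13 by the exact binomial test.

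The first was mt-Co1, at 2840 CPM in replicate 1, against 2558 CPM in replicate 2, a ratio of 1.11 [1.04 to 1.19] (exact binomial p = 0.00204, adjusted p = 0.0792). With genes under 50 reads left out mt-Co1 was called (adjusted p = 0.0410, exact binomial test). Under that filter 1 of 11 mitochondrial genes tested was called, beside 161 of all 2897 genes tested. The second was mt-Co3, at 425 CPM in replicate 1, against 355 CPM in replicate 2, a ratio of 1.20 [1.00 to 1.43] (exact binomial p = 0.0446, adjusted p = 0.483). Of the 13 genes 8 were the higher in replicate 1 and 5 in replicate 2, and the median log2 ratio with 0.5 reads added was 0.06, beside -0.00052 over all genes tested.

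**Figure D2:**
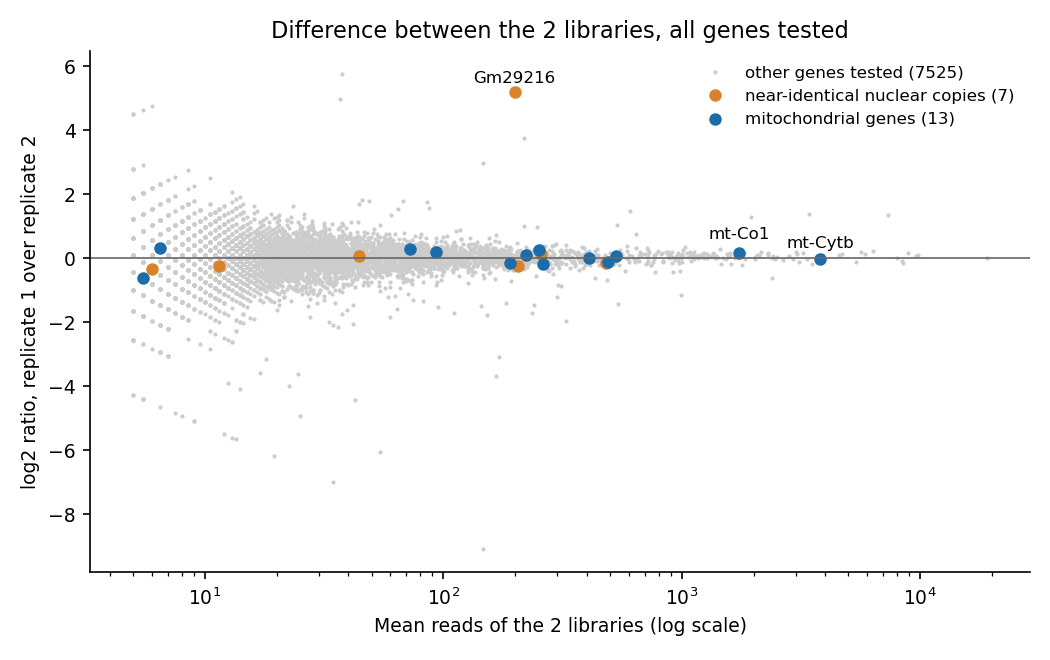
Log2 ratio of replicate 1 over replicate 2 (0.5 reads added) against mean reads on a log axis for the 7545 genes tested, with 13 mitochondrial genes and 7 near-identical nuclear copies in colour. The mitochondrial genes lie about the line of no difference, while the copy Gm29216 lies far above it.

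Nuclear copies were sought by aligning all 37 mitochondrial transcripts to 141730 nuclear transcripts of the annotation. A match was found in 25 nuclear transcripts, and 11 of these were near-identical, with at least 95% identity to 1 of 9 mitochondrial genes over at least 50% of the copy. Of the 11 copies 9 had reads and 2 (Gm13339, a copy of part of mt-Nd2, and Gm4076, a copy of part of mt-Nd5) had no listed read. The 9 copies held 1330 reads in replicate 1 and 1093 reads in replicate 2, while the 9 mitochondrial genes with a near-identical copy held 3453 reads in replicate 1 and 3519 reads in replicate 2. Of the less similar matches, 14 in number, only a transcript of Cep295, a protein-coding gene that matches mt-Ty over part of its length, belonged to a gene with a read (1 read in replicate 1).

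Of the near-identical copies 7 lie side by side on the − strand of chromosome 1 (chr1:24611535-24616197, 4663 bases), in the same order as their mitochondrial counterparts from mt-Co1 to mt-Nd4. The copies of mt-Co2 (Gm28661, 681 bases), mt-Atp6 (Gm10925, 678 bases), mt-Co3 (Gm28437, 783 bases), mt-Nd4l (Gm10222, 294 bases) and the start of mt-Nd4 (Gm28439, 876 bases) match over their whole length at 100% identity. Gm28438 differs from mt-Nd3 at 1 of 345 bases and Gm29216 from mt-Co1 at 1 of 483 aligned bases, the differences printed above. A read that lies within an identical stretch cannot be told apart by its sequence, and the sources used here do not say how such reads were placed.

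mt-Atp6 had 393 reads in replicate 1 and 423 reads in replicate 2, and Gm10925 had 438 and 525 reads. The copy thus held 52.7% [49.2 to 56.1] of the reads of the pair in replicate 1 and 55.4% [52.2 to 58.6] in replicate 2. For mt-Co2 the copies held 51.3% [45.9 to 56.6] in replicate 1 and 53.0% [48.3 to 57.8] in replicate 2, with 181 and 231 reads on Gm28661. For mt-Co3 the copy held 49.5% [45.2 to 53.9] in replicate 1 and 51.6% [47.1 to 56.1] in replicate 2, with 259 and 255 reads on Gm28437. All these shares but those of mt-Atp6 in replicate 2 had intervals that included an equal split. For mt-Nd3 the copy held 10 of 17 reads in replicate 1 and 13 of 19 reads in replicate 2. For mt-Nd4l the copy Gm10222 held all 6 reads in replicate 1 and 2 of 3 reads in replicate 2.

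mt-Nd4 differed from these genes. Its copy Gm28439 covers bases 1 to 876 of the 1378 bases of the gene and held 5 reads in replicate 1 and 7 reads in replicate 2, which was 2.07% [0.677 to 4.77] and 2.36% [0.956 to 4.81] of the reads of the pair. These intervals lay below those of mt-Atp6, mt-Co2 and mt-Co3 in both libraries.

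**Figure D3:**
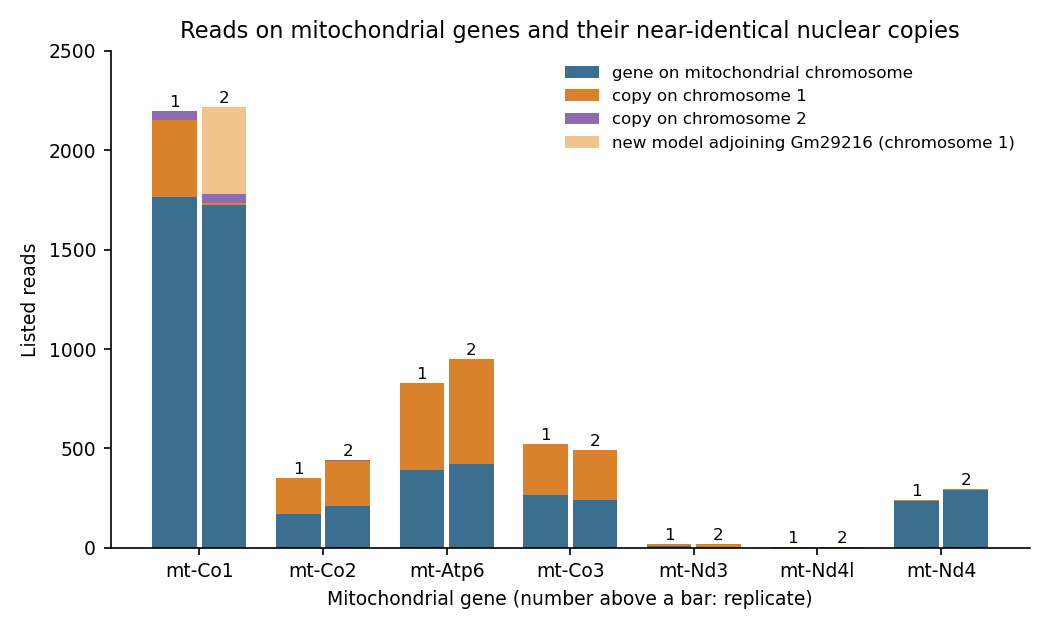
Listed reads on 7 mitochondrial genes (lowest segment) and on their near-identical nuclear copies in replicate 1 (left bar) and replicate 2 (right bar). The copies of mt-Co2, mt-Atp6 and mt-Co3 hold about as many reads as the genes, and in replicate 2 the mt-Co1 bar carries 436 reads of a new model and 11 reads of Gm29216, where replicate 1 has 387 reads of Gm29216 and none of the model.

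mt-Co1 has a pair of near-identical copies. Gm13340, on chromosome 2, is 97.6% identical over all 1545 bases, with 37 mismatches, and had 44 reads in replicate 1 and 45 reads in replicate 2. Gm29216, on chromosome 1, matches bases 1063 to 1545 and had 387 reads in replicate 1 and 11 reads in replicate 2. It was called 38.1-fold [21.1 to 77.0] higher in replicate 1 (adjusted p = 6.44e-103 by the exact binomial test and 1.36e-22 by edgeR's exact test). It was the only copy called among the 7 that could be tested. By the exact binomial test 2.07% of all genes tested were called, with 0.861% higher in replicate 1.

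The difference was smaller over the wider locus. Replicate 2 listed an unannotated 142-base model (chr1:24615565-24615706, − strand) with 436 reads, which replicate 1 did not list. It fills the gap between Gm28661 and Gm29216. Its end bases are edge bases of these copies, so its length need not be that of its reads. On the mitochondrial chromosome the tRNA genes mt-Ts1 and mt-Td lie in the matching gap between mt-Co2 and mt-Co1. Gm29216 and this model together had 387 reads in replicate 1 and 447 reads in replicate 2, a ratio of 0.939 [0.817 to 1.08]. mt-Co1 with both copies and this model had 2196 reads in replicate 1 and 2215 reads in replicate 2, a ratio of 1.07 [1.01 to 1.14]. Without the model the ratio for mt-Co1 and its copies was 1.34 [1.26 to 1.43] (adjusted p = 1.65e-17, exact binomial test). The copies and the sums were looked at after their reads were seen.

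Unannotated models on the mitochondrial chromosome held 117 reads in replicate 1, or 1.47% [1.22 to 1.76] of all reads on that chromosome. They held 136 reads in replicate 2, or 1.61% [1.35 to 1.90]. Of their reads 70 in replicate 1 and 84 in replicate 2 were on the + strand, and 47 and 52 on the − strand. The deposited tables classed 13 models as antisense and 2 as intergenic in replicate 1, and all 16 as antisense in replicate 2. Of the 15 models of replicate 1, 12 (113 reads) were overlapped on the same strand by a new model of replicate 2, and 15 of the 16 models of replicate 2 (133 reads) by one of replicate 1. Within 2 bases of the edge of an annotated gene lay 17 of the 30 model ends in replicate 1 and 18 of 32 in replicate 2. Some adjoining models shared an end base, and 1 model of replicate 2 spanned 2 bases (chrM:2675-2676, − strand, 1 read). Model lengths and ends, here and on chromosome 1, therefore need not be those of the reads.

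**Figure D4:**
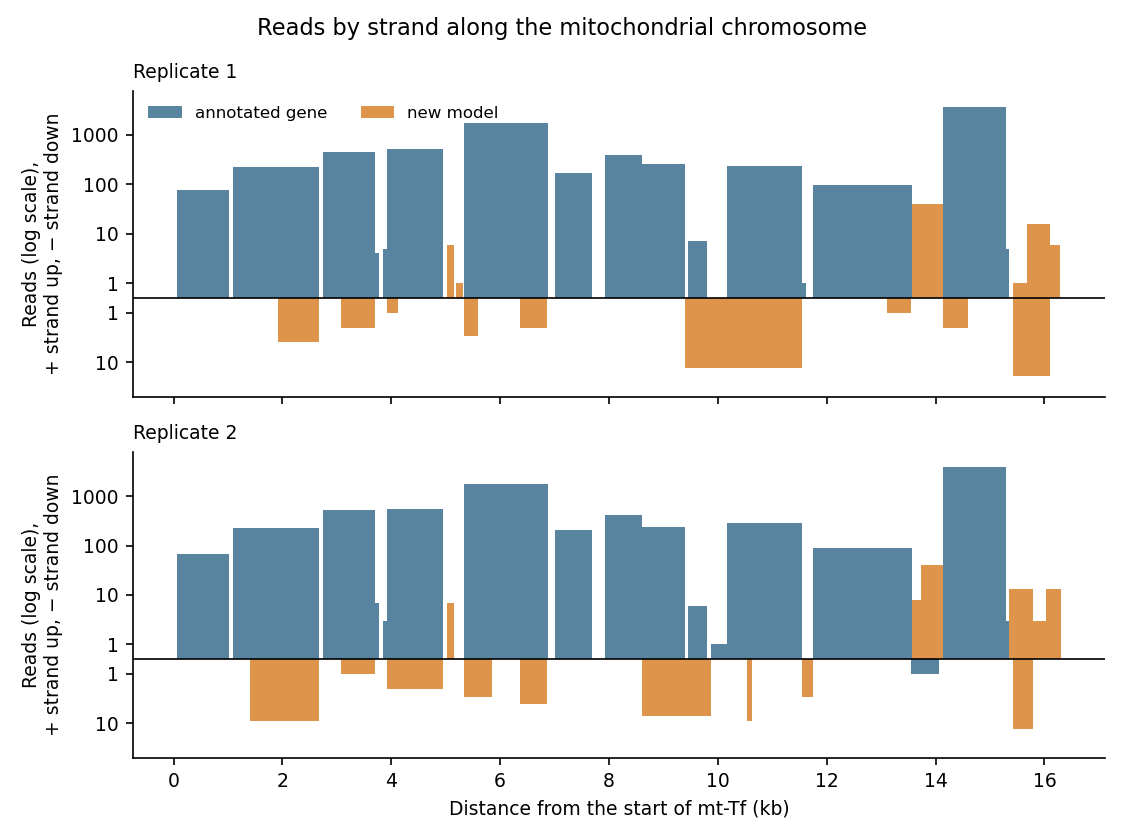
Reads on annotated genes and new models along the mitochondrial chromosome, against distance from the start of mt-Tf in kilobases, with the + strand upward and the − strand downward on log scales and replicate 1 above replicate 2. Annotated genes of the + strand carry most reads, and new models fill the stretch between mt-Nd5 and mt-Cytb, the control region at the right end and parts of the − strand.

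The new models with most reads lay between mt-Nd5 and mt-Cytb, on the + strand and opposite mt-Nd6 and mt-Te, the glutamic acid tRNA. Replicate 1 had 40 reads on 1 model (chrM:13565-14145), which starts at the last base of mt-Nd5 and ends at the first base of mt-Cytb. Replicate 2 had 8 reads on chrM:13565-13725 and 40 reads on chrM:13725-14145, which cover the same 581 bases. The sums of 40 and 48 reads stand against no listed read in replicate 1 and 1 read in replicate 2 on mt-Nd6 itself.

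The control region, which follows mt-Tp and is known to hold the promoters and the displacement loop, had reads on both strands. On the + strand it had 23 reads in replicate 1 and 29 reads in replicate 2, and on the − strand 19 and 13 reads. In replicate 1 the largest of these models were chrM:15422-16103 on the − strand (19 reads), chrM:15673-16103 on the + strand (16 reads) and chrM:16103-16294 on the + strand (6 reads). In replicate 2, chrM:15356-15791 and chrM:16038-16297 on the + strand and chrM:15422-15791 on the − strand had 13 reads each. The model boundaries therefore differed between the libraries although the region was the same.

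Opposite genes of the + strand, the − strand had 28 reads in replicate 1 and 39 reads in replicate 2. The most in replicate 1 were 13 reads on a 2154-base model opposite mt-Tg to mt-Nd4 (chrM:9391-11544). The most in replicate 2 were 9 reads each on a model opposite mt-Rnr2 (chrM:1410-2675) and a 91-base model inside mt-Nd4 (chrM:10533-10623). A + strand model of 144 bases opposite mt-Ta and mt-Tn (chrM:5016-5159) had 6 reads in replicate 1 and 7 reads in replicate 2, with the same ends in both. Annotated and new models together, the − strand held 47 reads in replicate 1, or 0.590% [0.434 to 0.784] of reads on the chromosome. It held 53 reads in replicate 2, or 0.626% [0.469 to 0.818]. Since it is not known whether the libraries kept strand, a read from a gene and a read antisense to it cannot be told apart with certainty.

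Mitochondrial transcripts depend on nuclear genes that make, cut and protect them. In the share of genes called, each list below stands beside the 2.07% called over all genes, and its few tested members leave a count of 0 uninformative. The 10 genes of mitochondrial transcription summed to 201 CPM in replicate 1 and 156 CPM in replicate 2. Polrmt, the mitochondrial RNA polymerase, had 20 reads in replicate 1 and 17 reads in replicate 2, Mterf3, which represses mitochondrial transcription, had 33 and 16 reads, and Tfb2m, which opens the promoter, had 16 and 24 reads. Also among the 5 most abundant were Mterf2 and the elongation factor Tefm. Of the 6 members that could be tested 0 were called, with a median log2 ratio of 0.37, beside -0.00052 over all genes tested.

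Of the 22 symbols listed for mitochondrial RNA processing and modification 21 had reads. The symbol without reads, Prorp, names the same gene as 1110008L16Rik, which had reads. The listed genes summed to 1357 CPM in replicate 1 and 1354 CPM in replicate 2. They were led by Fastk (282 reads in replicate 1 and 296 reads in replicate 2), whose mitochondrial form is needed for mt-Nd6 RNA, and Hsd17b10 (220 and 232 reads), a subunit of the RNase P that cuts tRNA 5′ ends. Grsf1, an RNA granule protein that binds mt-Nd6 RNA, Ptcd2 and Mrm3, a methyltransferase of the large-subunit rRNA, followed. Of the 19 tested 0 were called. The 6 genes of RNA stability and decay summed to 578 CPM in replicate 1 and 612 CPM in replicate 2, and 0 of 6 were called. Among them Slirp (185 reads in replicate 1 and 222 reads in replicate 2) and Lrpprc (73 and 68 reads) form the complex that stabilises mitochondrial mRNAs, Rexo2 degrades short RNA fragments, and Supv3l1 and Pnpt1 form the degradosome.

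Of 10 symbols of mitochondrial DNA replication 9 had reads and 6 could be tested, led by Ssbp1, the single-strand DNA binding protein, with 396 reads in replicate 1 and 416 reads in replicate 2. The 11 mitochondrial translation factors summed to 460.2 CPM in replicate 1 and 454 CPM in replicate 2, led by Tufm, the elongation factor Tu, with 69 and 102 reads. In neither list was a gene called, with 6 and 10 tested.

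The nuclear partners of the encoded subunits were compared per kilobase, each gene's reads being divided by the mean length of its models weighted by reads. The counts are of whole long reads, so this division raises short genes relative to long ones. Without it the mitochondrial and nuclear sums were 2133 and 10772 CPM for complex I and 5875 and 22665 CPM for complex III. They were 3381 and 49622 CPM for complex IV and 630 and 47476 CPM for complex V (means of the libraries). For complex III, mt-Cytb stood at 5136 ± 41.9 CPM per kilobase and the 9 nuclear genes listed at a sum of 32761 ± 1214. For complex IV, the 3 mitochondrial genes summed to 2672 ± 159.5 CPM per kilobase and the 10 nuclear genes to 91036 ± 4363. For complex I the 7 mitochondrial genes summed to 1982 ± 37.5 CPM per kilobase and the 7 nuclear core genes to 17117 ± 262. For complex V the 2 mitochondrial genes summed to 925 ± 4.71 and the 16 nuclear symbols listed, of which 15 had reads, to 66638 ± 957. Among these symbols Atp5f1 and Atp5pb name the same gene. Each nuclear list except that of complex I holds more genes than its mitochondrial counterpart, so the sums do not show which genes were higher. Divided by the number of listed genes, mt-Cytb at 5136 ± 41.9 CPM per kilobase lay above the nuclear mean of complex III at 3640.1 ± 135 in both libraries. The mean per gene was 283 ± 5.36 for mitochondrial and 2445 ± 37.4 for nuclear genes of complex I, 891 ± 53.2 and 9104 ± 436 for complex IV, and 463 ± 2.36 and 4165 ± 59.8 for complex V. The nuclear mean of complex V divides by all 16 symbols, of which 15 had reads, and is too low for that reason. The mitochondrial means of complexes I and V count mt-Nd4l and mt-Atp8, with at most 1 read in a library, as genes of their own. Both are known to share a bicistronic message with a neighbour, and counting them apart lowers these means. Reads on nuclear copies are not in the mitochondrial sums.

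Of 41 nuclear subunits tested 6 were called between the libraries by the exact binomial test, or 14.6%, beside 2.07% of all genes tested (0.861% higher in replicate 1 and 1.21% higher in replicate 2). A test of counting error calls smaller ratios at higher depth, and these subunits have many reads. Among genes with at least 50 reads over both libraries 161 of 2897 were called. The part of depth in the share of subunits called was not tested. In complex IV 3 of 10 were called, all higher in replicate 1. Cox6a2, the heart and muscle form of subunit VIa, was 1.15-fold higher (adjusted p = 5.45e-11, exact binomial test), Cox6b1 1.13-fold and Cox4i1 1.06-fold. In complex III 1 of 9, Uqcrq, was 1.09-fold higher in replicate 2. In complex V Atp5g1 was 1.10-fold higher in replicate 1 and Atp5b 1.10-fold higher in replicate 2, of 15 tested. In complex I 0 of 7 core genes were called. With the common dispersion in edgeR's exact test none of the 6 was called, with an adjusted p of 1 each. That dispersion, a coefficient of variation of 0.162, was estimated from the same 2 libraries. With 1 library on each side the test could not have called ratios this near 1, so it does not check the 6 calls.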

How the data were processed

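Per the file headers, each deposited table gives raw read counts for transcript models, beside their gene, class, exon number and length. The coordinates of models, in bases, are those of the deposited annotation files on mm10 with GENCODE M21, per the file headers, whose new models name TALON. The sources used here do not give the aligner, versions or filters. Each library was modelled by the authors on its own, per the deposited files. Rows at 0 reads are not listed.

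Reads were summed per gene over all classes, control RNAs apart. TMM factors and an exact test with the common dispersion (from an intercept-only fit over both libraries) came from edgeR 4.0.16 in R 4.3.3, and alternative size factors from DESeq2 1.42.0. Genes with at least 10 reads over both libraries were tested by an exact binomial test with Benjamini-Hochberg adjustment over 7545 genes. With 1 library on each side no quasi-likelihood fit was possible. Copies were found with megablast of BLAST 2.17.0. Model ends were described for new models, since every mitochondrial gene model was the annotated one. Other steps used Python 3.11.15 with scipy 1.17.1, numpy 2.4.6 and pandas 2.3.3, and plots matplotlib 3.10.9. The exact tests were checked on data simulated with counting error only, which does not check the calls against spread between libraries. Intervals are Clopper-Pearson.

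The members and lists were chosen with earlier results of these data known. Named were all mRNA and rRNA genes, the tRNA genes with reads, the 5 new models with most reads in each library with ties, the leading and the called members of each nuclear list, and the near-identical copies. Of a list of 12 pseudogene symbols 9 had reads, and 10 of the 12 are near-identical copies. In that list 7 could be tested and 1 was called (Gm29216), beside 2.07% of all genes tested. Fibroblast, endothelial and macrophage markers summed to 335, 301 and 208 CPM in replicate 1 and 463, 261 and 322 CPM in replicate 2.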

Additional observations from a re-analysis of the deposited data

How the results depend on the processing

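Leaving out 1 library moved the mitochondrial share of mouse reads between 1.24% and 1.25%, the mitochondrial mRNA sum between 11918 and 12122 CPM and the share of new models on the mitochondrial chromosome between 0.0186% and 0.0205%. No test can be run with 1 library left, and no paired analysis was possible because there is 1 group. The share of 1.25% became 1.23% of all listed reads, 1.28% without hemoglobin genes in the base, 1.27% with every model of the chromosome, 1.37% without the genomic class and 1.90% with the known class only. The mRNA sum of 12019.8 CPM became 11786, 12276, 12215, 13128 and 18243 CPM under the same changes, and 10715 CPM per kilobase. With reads of near-identical copies added, an alternative chosen after seeing the data, the share was 1.44% and the sum 13901 CPM, and with new models inside the chromosome 1 block 1.47% and 14245.5 CPM. The count of 156 genes called became 102 of 5399 tested with the known class only and 49 with edgeR's exact test. It rose to 216 of 6712 tested with the genomic class left out and was 129 with no filter on reads. The other settings gave 154 to 161. The count of 0 mitochondrial genes called became 1 of 11 tested (mt-Co1) with genes under 50 reads left out, beside 161 of all 2897 genes. It became 1 of 13 tested (mt-Co1) with copies added, where the new model of replicate 2 is not counted. Of the comparisons of single mitochondrial genes over these settings, 107 kept direction and side of the threshold. The log2 ratio of mt-Atp6, 0.01 as reported, changed sign to -0.0495 with DESeq2 size factors, -0.0301 with no factor, -0.00366 without hemoglobin genes, -0.00632 with the known class only and -0.0735 with copies added, and that of mt-Nd3 to -0.0439 with copies added. None of these 6 was called, and the causes were not tested. Depth limits the genes under 10 reads, and levels of genes with identical copies are uncertain at any depth.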
